A study of Homo sapiens with 4 samples.

Results

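The 39 human HOX genes were examined among 58365 gene rows of the expression table from day 2 of hematopoietic differentiation of human embryonic stem cells. The members were all rows whose symbol was HOXA, HOXB, HOXC or HOXD followed by a paralog number, so antisense genes were left out. H1 cells, a human embryonic stem cell line, were grown for 2 days in custom mTeSR1 medium with activin A and BMP4, growth factors that induce mesoderm. The sample labels give 40 ng/ml activin A and 50 ng/ml BMP4, while the methods of the study give these amounts the other way round. In 2 samples the cells also received IWP2, a small molecule that blocks the secretion of Wnt ligands, and the 2 control samples are labelled DMSO, the usual solvent. The dose of IWP2 is not given in the sources used here. All 4 samples came from 1 cell line, the labels describe no sorting, and they do not say that the replicates were separate cultures. The study's methods speak of independent experiments for its analyses in general, without naming these libraries, so p-values measure only the spread between these samples, which may be technical.

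HOX genes encode homeodomain transcription factors that give cells their position along the head-to-tail axis. They lie in clusters in the order in which they are switched on, from the anterior genes with low paralog numbers to the posterior genes with high numbers. In the embryo the first HOX genes are activated in the posterior primitive streak, where Wnt signaling and the CDX factors are known activators. HOX genes of the central and posterior groups also act later in blood stem and progenitor cells.

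The table held 11 HOXA genes on chromosome 7, 10 HOXB genes on chromosome 17 (chr17:48528526-48729178), 9 HOXC genes on chromosome 12 (chr12:53938765-54056030) and 9 HOXD genes on chromosome 2 (chr2:176092891-176190907), in GRCh38 coordinates. HOXA and HOXB genes lie on the minus strand, and HOXC and HOXD genes on the plus strand.

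The homeobox is the stretch of 60 codons for the DNA-binding homeodomain and is what the members share. It was found in a transcript of each of the 39 genes. Its last 20 codons are shown for 4 HOXB genes that fell with IWP2 (values below). The 4 are the 3 most abundant members and HOXB7, whose homeobox has the highest base identity to that of HOXB6. The last 20 codons hold the recognition helix that contacts DNA. The capitals mark the codons at the core of that helix, by which the homeobox was located. Sequences are from GENCODE release 29 transcripts, coding strand, 5′ to 3′.
HOXB2: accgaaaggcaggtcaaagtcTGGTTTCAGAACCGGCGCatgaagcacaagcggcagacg
HOXB6: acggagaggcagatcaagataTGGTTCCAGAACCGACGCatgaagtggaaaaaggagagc
HOXB7: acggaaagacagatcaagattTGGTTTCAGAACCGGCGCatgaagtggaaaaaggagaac
HOXB9: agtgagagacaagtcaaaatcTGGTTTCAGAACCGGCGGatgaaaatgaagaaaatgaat
The helix core is shared by the way the homeobox was located, and its codons differ between the genes. Over the whole homeobox of 180 bases, the 36 pairs among the 9 HOX genes that fell were 58.9 to 88.9% identical, with a median of 64.7%. HOXB6 and HOXB7 were the closest pair at 88.9%, and the longest run of identical bases in their transcripts was 51. Among the 300 pairs of a gene that fell and any other HOX gene whose rows do not overlap, the longest identical run had a median of 16 bases and a maximum of 62 bases, between HOXB3 and HOXD3. The length of the reads is not given in the sources used here, so how far short reads could be shared between paralogs was not tested.

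Promoter sequences were at hand for 20 of the 39 members, and HOXA9 was the only gene among the 9 that fell. The 250 bases before a RefSeq start are shown for HOXA9 and its neighbour HOXA10, both present in the DMSO samples alone, for HOXA3, listed at 0 in every sample, and for HOXB1, the first gene of the HOXB cluster, which did not exceed 0.251 FPKM. The capitals mark CTTTGA or CTTTGT, core letters of the motif bound by the TCF and LEF factors of the Wnt pathway, and TTTAT, core letters of the CDX motif, each searched on both strands. The sequences are on the minus strand of GRCh38.p14, HOXA9 at chr7:27165538-27165787, HOXA10 at chr7:27179862-27180111, HOXA3 at chr7:27152584-27152833 and HOXB1 at chr17:48531012-48531261.
HOXA9: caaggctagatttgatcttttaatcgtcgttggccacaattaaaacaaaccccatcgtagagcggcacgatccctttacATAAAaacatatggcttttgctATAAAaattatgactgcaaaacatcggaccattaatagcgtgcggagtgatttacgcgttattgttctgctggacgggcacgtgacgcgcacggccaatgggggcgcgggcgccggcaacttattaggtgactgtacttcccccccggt
HOXA10: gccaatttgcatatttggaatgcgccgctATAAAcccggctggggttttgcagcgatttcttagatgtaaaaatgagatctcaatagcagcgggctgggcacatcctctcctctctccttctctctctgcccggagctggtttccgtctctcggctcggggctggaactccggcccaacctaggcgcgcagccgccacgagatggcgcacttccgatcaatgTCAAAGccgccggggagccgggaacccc
HOXA3: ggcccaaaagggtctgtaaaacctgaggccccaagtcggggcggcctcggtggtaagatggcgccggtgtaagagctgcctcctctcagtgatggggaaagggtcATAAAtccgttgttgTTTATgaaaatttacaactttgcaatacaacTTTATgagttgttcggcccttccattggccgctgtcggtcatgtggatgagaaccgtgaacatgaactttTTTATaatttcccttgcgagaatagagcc
HOXB1: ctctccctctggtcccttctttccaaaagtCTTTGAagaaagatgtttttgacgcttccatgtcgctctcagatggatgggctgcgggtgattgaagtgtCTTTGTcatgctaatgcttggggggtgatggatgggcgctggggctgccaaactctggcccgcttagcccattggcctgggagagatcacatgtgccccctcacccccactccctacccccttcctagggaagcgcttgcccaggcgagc
TTTAT or its reverse complement was in 14 of the 27 HOX windows, or 51.9%, and in 32.7% of the 35116 RefSeq windows of this length. The 27 windows are not separate items, since 7 belong to HOXA3, 5 of them with a match, and HOXC4 and HOXC5 have the same window. By gene, 9 of 20 had a match in any window. CTTTGA was in 3 HOX windows, 11.1%, against 11.2% of all windows, and CTTTGT was in 2, 7.41%, against 13.7%. HOXA9 held 2 matches to TTTAT and none to the TCF and LEF letters, the HOXA3 window shown, which has the most matches of its 7, held 4 to TTTAT, and HOXB1 held 1 match each to CTTTGA and CTTTGT. These are matches of short letters, and none is shown to be a binding site.

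Values are FPKM, a fragment count scaled by transcript length and library size, as the authors deposited them. The steps between low values gave estimated depths of 20600000 to 25300000 fragments per sample. The samples had 15687 to 15855 genes of at least 0.5 FPKM. Replicates were correlated across the tested genes at 0.975 for DMSO and 0.981 for IWP2 on the log2 scale, and samples of different groups at 0.938 to 0.948. As a check on the labels, 4 of 6 Wnt target genes fell with IWP2 and 2 did not pass, while 7.35% of all tested genes fell and 5.81% rose. Among the 4 was SP5, at 50.1 FPKM on average in DMSO and 0.371 FPKM in IWP2. All 7 markers of primitive streak and early mesoderm fell, with summed levels of 889 and 1108 FPKM in DMSO and 49.4 and 53.3 in IWP2. In 4 pluripotency genes the summed levels were 856 and 661 FPKM in DMSO and 2069 and 2055 in IWP2, 3 of them rising, SOX2 from 0.193 and 0.174 to 35.6 and 36.1. Of 6 amnion and trophoblast markers 3 rose and 3 did not pass, with sums of 97.9 and 80.9 against 136 and 143 FPKM, 2 of 3 endoderm markers fell (sums of 185 and 122 against 83.8 and 99.6), and of 3 neural markers OTX2 fell and PAX6 did not pass, with SOX1 at or below 0.0355 FPKM in every sample. Of 5 endothelial and blood markers, GATA1 was at 0 in every sample, TAL1 was at most 0.0894 FPKM, PECAM1 at most 0.447 FPKM and CDH5 at most 0.492 FPKM, while KDR, also a gene of early mesoderm, fell from 53.2 and 60.4 to 38.6 and 35.7 FPKM. HOX levels fell along with the streak and early mesoderm markers, while the summed levels of the pluripotency and of the amnion and trophoblast markers rose. The part of cell makeup in the HOX differences was not tested. In such bulk samples, fewer cells that use a gene and less RNA per cell cannot be told apart. Testing required a mean of at least 0.5 FPKM over the 4 samples. Of the markers and Wnt targets called, SP5, LEF1, MESP1, MESP2 and FOXA2 met it only through the DMSO samples. SOX2 and GABRP met it only through the IWP2 samples.

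The HOXB cluster made up the bulk of HOX expression, and nearly all of it was gone with IWP2. The summed HOXB level was 76.9 and 103 FPKM in the DMSO samples and 1.45 and 2.04 FPKM in the IWP2 samples. HOXB6 was the most abundant member, followed by HOXB2 and HOXB9, and all 3 fell with IWP2. The HOXA cluster was much lower, at 5.61 FPKM in each DMSO sample and 0.147 and 0.0863 FPKM in the IWP2 samples. HOXC and HOXD genes were close to 0 in all 4 samples, with sums of 0.141 to 0.366 FPKM for HOXC and 0.197 to 1.13 FPKM for HOXD. HOXB genes held 92.9% of the summed HOX level of the DMSO samples.

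A level of at least 0.5 FPKM was reached by 14 of the 39 genes, 35.9%, in each DMSO sample and by 1 gene, HOXB9, in each IWP2 sample. In DMSO these were 5 of 11 HOXA genes in both samples, 8 and 9 of 10 HOXB genes, none of 9 HOXC genes and 1 and 0 of 9 HOXD genes. By paralog number they were 4 and 3 of the 8 anterior genes (1 to 3), 4 and 5 of the 15 central genes (4 to 8) and 6 in both samples of the 16 posterior genes (9 to 13). The largest paralog sums in DMSO were those of number 6, at 38.9 and 51.7 FPKM, number 2, at 15.8 and 21.2 FPKM, and number 9, at 9.11 and 11.7 FPKM. Paralog 12 was listed at 0 in both DMSO samples. The levels therefore did not fall off evenly from anterior to posterior, and in each of these 3 groups a single HOXB gene supplied most of the sum.

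**Figure D1:**
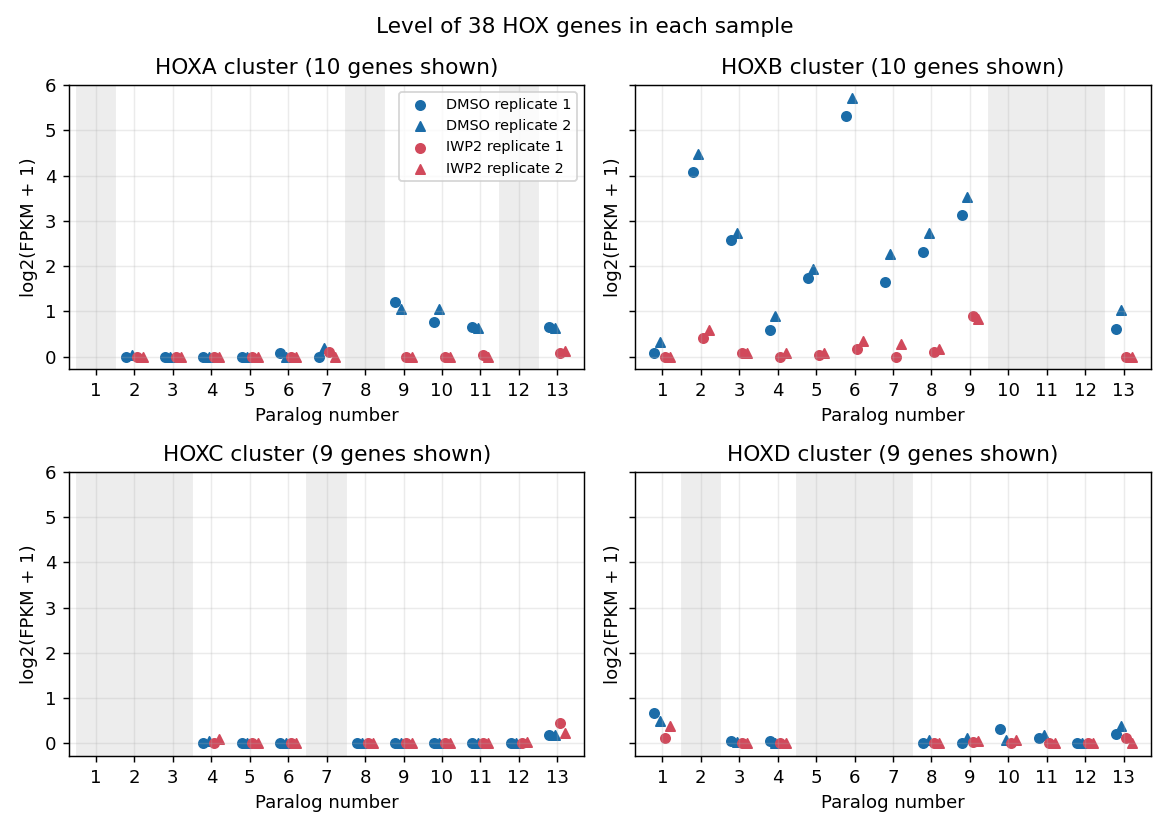
Level of 38 HOX genes as log2(FPKM + 1) against paralog number, 1 panel per cluster; blue marks are the 2 DMSO samples, red marks the 2 IWP2 samples, and grey bands are paralog numbers that the panel does not show. The DMSO marks rise above the IWP2 marks across most of the HOXB cluster and at HOXA9, HOXA10, HOXA11 and HOXA13, while HOXC and HOXD marks stay below 1.

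A mean over the 4 samples of at least 0.5 FPKM was required for testing, which 9 members met and 30 did not. Of these 9, 8 had an IWP2 mean below 0.5 FPKM and met the minimum only through the DMSO samples, so the count below describes them and supports nothing about HOX genes as a whole. All 9 fell with IWP2 (limma, Benjamini-Hochberg adjusted p below 0.05 over 15980 genes), beside 7.35% of all tested genes that fell, 5.81% that rose and 13.2% that changed either way. Those described here were HOXA9, HOXB2, HOXB3, HOXB5, HOXB6, HOXB7, HOXB8 and HOXB9. Without IWP2 replicate 1 only HOXB2 and HOXB6 passed, and without IWP2 replicate 2 only HOXB6, with every difference still negative. An exact permutation test of a single gene with 2 against 2 samples cannot go below p = 0.333.

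Among the anterior genes, HOXB2, known for its role in hindbrain patterning, was at 15.8 and 21.2 FPKM in DMSO and 0.320 and 0.493 FPKM in IWP2. The IWP2 samples were both low and did not overlap the DMSO samples, a ratio of mean FPKM of 45.5. Its difference was -3.78 ± 0.19 (SE, n = 2 per group, limma adjusted p = 0.000931). HOXB3, the next gene along the cluster, was at 4.95 and 5.68 FPKM in DMSO and 0.0479 and 0.0579 FPKM in IWP2, and fell by 2.58 ± 0.16 (SE) on the log2(FPKM + 1) scale. HOXB1, a hindbrain gene at the start of the HOXB cluster, was only at 0.0495 and 0.251 FPKM in DMSO and at 0 in IWP2, and it was not tested.

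The central genes held the most abundant member. HOXB6 (ENSG00000108511, chr17:48595751-48604992), which marks lateral plate mesoderm in the mouse embryo, was at 38.9 and 51.7 FPKM in DMSO and 0.116 and 0.263 FPKM in IWP2. The groups were far apart, with a ratio of mean FPKM of 239, and the IWP2 values correspond to an estimated 5 and 10 fragments on its longest annotated transcript, against 1518 and 1791 in DMSO. HOXB6 fell by 5.27 ± 0.18 (SE, n = 2 per group, limma adjusted p = 0.000439), the 8th largest fall of all 15980 genes tested. HOXB8, which sustains immature myeloid cells when overexpressed, was at 3.99 and 5.62 FPKM in DMSO and 0.0759 and 0.118 FPKM in IWP2, and fell by 2.39 ± 0.20 (SE). HOXB5, a regulator in neural crest and blood stem cells, was at 2.32 and 2.84 FPKM against 0.0222 and 0.0516 FPKM, and HOXB7 at 2.14 and 3.82 FPKM against 0 and 0.211 FPKM. For HOXB5, which has a single annotated transcript, these levels correspond to an estimated 95 and 103 fragments in DMSO and 1 and 2 in IWP2. HOXB5 fell by 1.78 ± 0.18 (SE) and HOXB7 fell by 1.82 ± 0.27 (SE) on the log2(FPKM + 1) scale. HOXB4, used to expand blood stem cells in culture, lay below the minimum, at 0.498 and 0.850 FPKM in DMSO and 0 and 0.0523 FPKM in IWP2.

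The central genes of the other clusters gave no comparable level. HOXA2 to HOXA7 did not exceed 0.139 FPKM in any sample, and HOXA3 and HOXA5 were listed at 0 throughout. HOXA9, HOXA10, HOXA11 and HOXA13, beyond this stretch, were each above 0.5 FPKM in both DMSO samples, and each HOXB gene from 2 to 9 was at 0.498 FPKM or more in both DMSO samples.

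Among the posterior genes, HOXB9 was the only one at 0.5 FPKM or more in IWP2. It was at 7.80 and 10.5 FPKM in DMSO and 0.869 and 0.790 FPKM in IWP2, a ratio of mean FPKM of 11.1, which corresponds to an estimated 416 and 500 fragments against 51 and 40. HOXB9 fell by 2.46 ± 0.18 (SE, n = 2 per group, limma adjusted p = 0.00276). HOXA9, a regulator of blood stem cells and a driver of acute leukemia, was at 1.31 and 1.08 FPKM in DMSO and at 0 in both IWP2 samples, and its difference was -1.13 ± 0.19 (SE, limma adjusted p = 0.0217). With a pseudocount of 0.1 in place of 1 it was -3.68, a larger fall than that of HOXB9 at -3.30, so the order of the low genes depends on the pseudocount. HOXA10 showed the same order at 0.706 and 1.06 FPKM against 0, just under the minimum, as did HOXB13 at 0.530 and 1.05 FPKM against 0. HOXA11, a limb and uterus gene, was at 0.580 and 0.553 FPKM against 0.0211 and 1.71e-06 FPKM, and HOXA13, which patterns digits and hindgut, was at 0.575 and 0.541 FPKM against 0.0581 and 0.0863 FPKM. HOXA11, HOXA13 and HOXB4 were named after their values were seen. With the minimum lowered to a mean of 0.1 FPKM, 17 members were tested, 11 of them with an IWP2 mean below 0.1 FPKM and so admitted only through DMSO, and 11 fell, HOXA10 (limma adjusted p = 0.0345) and HOXA11 (limma adjusted p = 0.0479) in addition, while HOXB4, HOXB13 and HOXA13 stood at adjusted p of 0.07, 0.0664 and 0.073. At that minimum 4.86% of 21337 genes fell, 3.76% rose and 8.62% changed either way. With no minimum 7 of 31 members fell, among 28917 genes of which 0.909% fell, 0.408% rose and 1.32% changed either way.

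HOXC13 was the only member with both IWP2 samples above both DMSO samples, at 0.366 and 0.170 against 0.141 and 0.136 FPKM, a difference of 0.15 ± 0.14 (SE) that did not pass at the lower minimum (limma adjusted p = 0.569). The estimated fragments were 20 and 8 against 7 and 6. HOXC4 at no more than 0.0654 FPKM and HOXC12 at no more than 0.0149 FPKM were the next HOXC genes. HOXD1 was the highest HOXD gene, at 0.584 and 0.400 FPKM in DMSO and 0.0922 and 0.295 FPKM in IWP2. HOXD13 was at 0.154 and 0.297 against 0.0799 and 0 FPKM, and HOXD10 at 0.240 and 0.0567 against 0 and 0.0531 FPKM. Neither HOXD1 (limma adjusted p = 0.304) nor HOXD13 (limma adjusted p = 0.371) passed at the lower minimum. Of the 39 members, 8 were listed at 0 in every sample, 14 had a mean above 0 but below 0.1 FPKM and 8 a mean between 0.1 and 0.5 FPKM. Both DMSO samples lay above both IWP2 samples for 20 of the 31 members with any value above 0, beside 24% of such genes in the whole table, and 1 lay the other way, beside 21.9%.

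**Figure D2:**
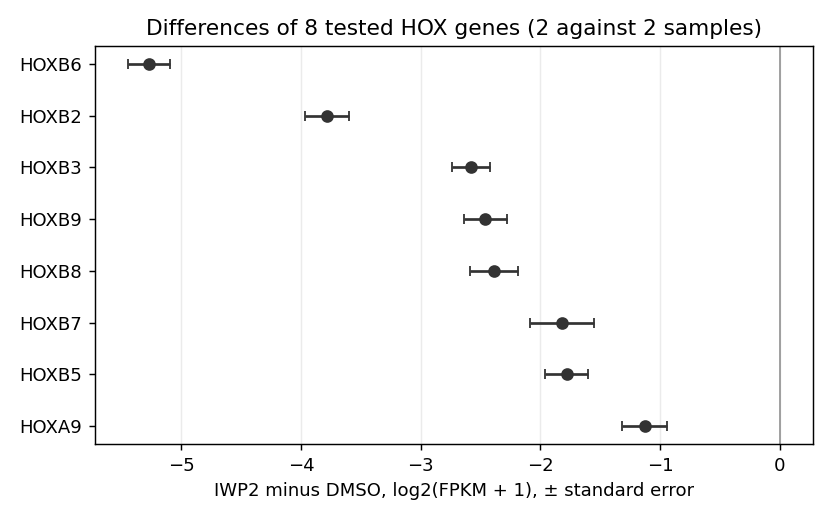
Difference IWP2 minus DMSO on the log2(FPKM + 1) scale for 8 tested HOX genes, with bars of 1 standard error from limma (2 against 2 samples). All 8 lie below 0, from -5.27 for HOXB6 to -1.13 for HOXA9.

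In order of their DMSO levels the HOXB genes ran HOXB6, HOXB2, HOXB9, HOXB3, HOXB8, HOXB7, HOXB5, HOXB13, HOXB4 and HOXB1. The DMSO values of HOXB3 and HOXB8 overlapped, as did those of HOXB7 and HOXB5 and those of HOXB13 and HOXB4, so these neighbours were not set apart by their spread. Order along the chromosome and level did not run together. The nearer end of HOXB2 lies 9.90 kb from the HOXB1 start and that of HOXB6 64.8 kb, and between them HOXB4, at 44.5 kb, was at 0.674 ± 0.249 FPKM (SD, n = 2) in DMSO. At the far end, between HOXB9 and HOXB13, lies PRAC1, a small gene known from prostate and hindgut, which was at 23.7 and 25.2 FPKM in DMSO and 0 in both IWP2 samples. Its difference was -4.67 ± 0.13 (SE, limma adjusted p = 0.00031). PRAC1 lies 190.7 kb from the HOXB1 start, and its neighbour HOXB13, at 193.8 kb, reached only 0.790 ± 0.367 FPKM (SD, n = 2) in DMSO.

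**Figure D3:**
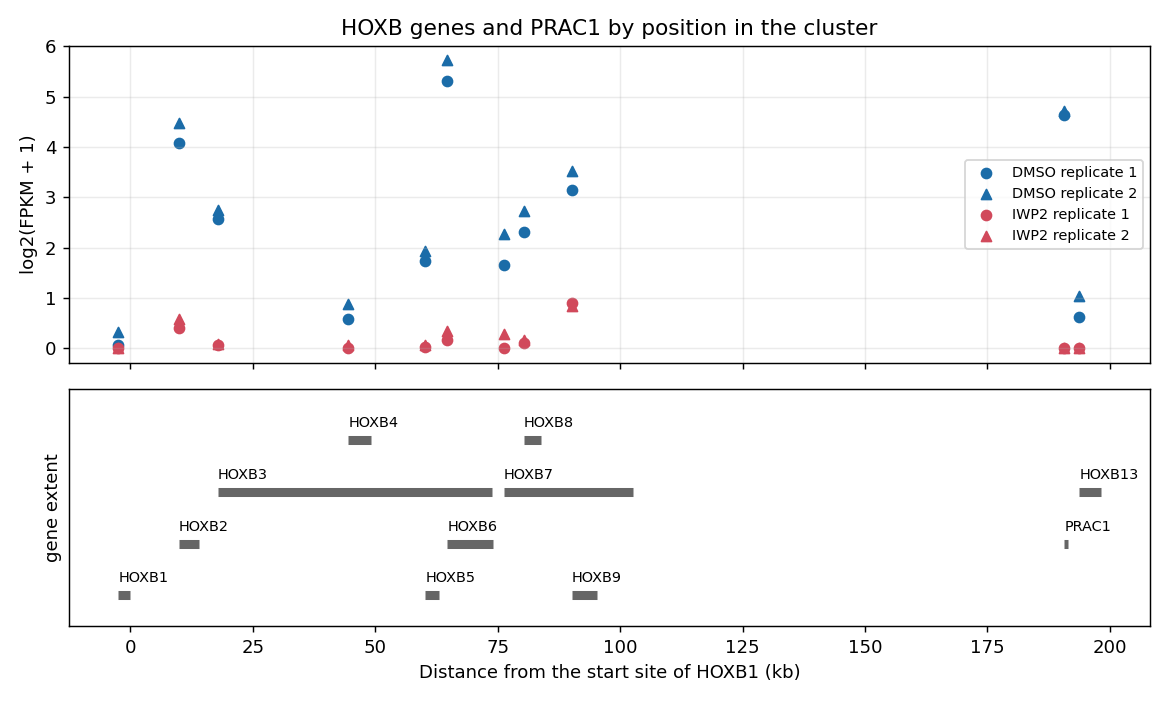
Upper panel, level of the 10 HOXB genes and PRAC1 as log2(FPKM + 1) in each sample against distance from the HOXB1 start site in kb; lower panel, the extent of each gene row drawn to scale. HOXB6 and PRAC1 are the highest DMSO marks, and the rows of HOXB3 and HOXB7 run across other HOXB genes.

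Some of these rows share sequence with others. HOXB3 and HOXB6 share 433 exonic bases on the same strand, 5.81% of the HOXB3 exons and 16.6% of the HOXB6 exons. HOXB6 also overlaps 425 bases of the antisense gene HOXB-AS3, and HOXA9 overlaps 422 bases of HOXA10-AS, 13.9% of its exons. For HOXA10 and HOXA11, which fell only at a lower minimum or with none, the antisense overlap was larger. HOXA10 overlaps 608 bases of HOXA10-AS, 16.4% of its exons, and HOXA11 overlaps 717 bases of HOXA11-AS, 31.1%. The library kit is named but strand-specific counting is not stated in the sources used here, so reads of a gene and of its antisense partner may not have been told apart. How the overlap divided reads between HOXB3 and HOXB6 was not tested.

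The 2 DMSO samples differed in the HOXB genes. Of 9 HOXB genes with a DMSO mean of at least 0.5 FPKM, all 9 were higher in DMSO replicate 2, with a median ratio of 1.35, against 0.999 for all tested genes. Of 5 HOXA genes at that level, only HOXA10 was higher in replicate 2, at a ratio of 1.5, while HOXA9 was at 0.823. Of the 7 streak and mesoderm markers 6 were also higher in that sample, from EOMES at a ratio of 1.11 to MESP1 at 1.57, and T was lower at 0.855, whereas NANOG and POU5F1 were lower, at 0.415 and 0.761. PRAC1, EVX1 and CDX2 differed less, at 1.06, 0.953 and 0.948. With 1 sample on each side there is no test of these differences, and the gap between DMSO and IWP2 was larger than this spread for each of the 9 tested members. In IWP2 the HOXB sum was likewise higher in replicate 2, at 2.04 against 1.45 FPKM, although HOXB9 was lower there, at 0.790 against 0.869 FPKM. Whether same-numbered samples belong together is not stated.

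**Figure D4:**
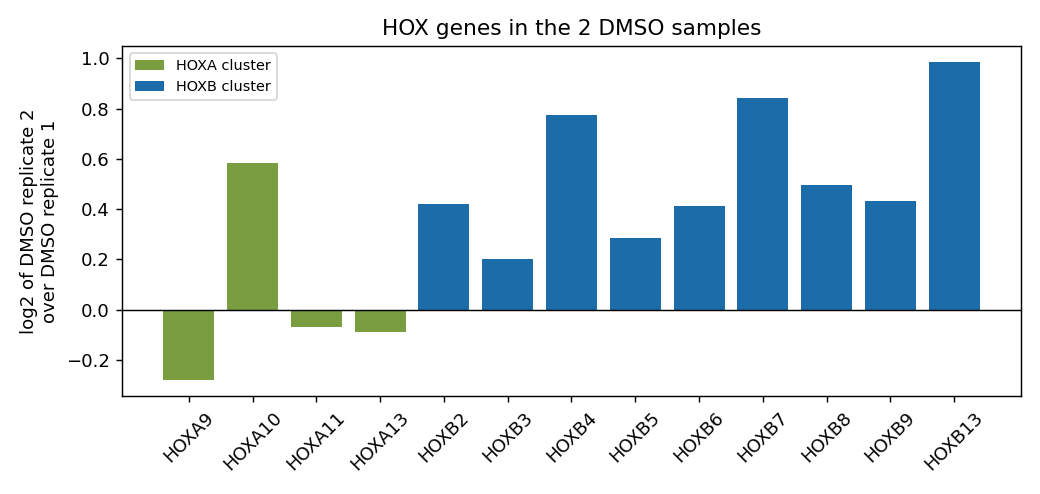
Log2 ratio of DMSO replicate 2 over DMSO replicate 1 for 13 HOX genes with a DMSO mean of at least 0.5 FPKM, as bars from 0; green, HOXA, and blue, HOXB. All 9 HOXB bars and the HOXA10 bar point up, and the other HOXA bars point down.

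The noncoding genes inside the clusters were taken from a list of named genes, 18 of them present, which does not hold every such gene. These 18 were low or absent in IWP2. Of the 18, 4 were tested and 3 fell, beside 7.35% of all tested genes, but those 3 met the minimum only through the DMSO samples. HOTAIRM1, a noncoding gene of the HOXA cluster, was at 4.16 and 3.21 FPKM in DMSO, HOXB-AS1 at 2.49 and 3.75 FPKM and HOXB-AS3 at 3.45 and 2.15 FPKM, and all 3 were listed at 0 in both IWP2 samples. HAGLR, in the HOXD cluster, was at 1.35 and 1.54 FPKM against 0.193 and 0.688 FPKM and did not pass (limma adjusted p = 0.0977). The microRNA rows of the clusters, MIR10A, MIR10B, MIR196A1, MIR196A2, MIR196B and MIR615, were listed at 0 in every sample. Fragments were fitted at 258 to 280 bases, longer than such short microRNA genes, so a 0 here does not show that a microRNA was absent.

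Among 10 listed neighbours of the HOX genes, 8 were tested, of which 2 fell and 6 did not pass, beside 7.35% of all tested genes that fell. The 2 were EVX1 and PRAC1, which lies inside the HOXB span and met the minimum only through the DMSO samples. Thus EVX1 was the only one that fell among the listed and tested neighbours outside the clusters. The list does not hold every gene near the clusters. For HOXB it held only SKAP1 outside the cluster, at 0.174 and 0.159 FPKM in DMSO and 0 in IWP2. SKAP1 was not tested, so the fall beyond the HOXB cluster was not examined. EVX1, a homeobox gene of the posterior streak that lies beyond HOXA13, was at 34.6 and 33.0 FPKM in DMSO and 0.559 and 0.493 FPKM in IWP2, a difference of -4.51 ± 0.12 (SE, limma adjusted p = 0.00031). SKAP2, beside the HOXA cluster, was at 2.49 and 3.53 FPKM against 1.51 and 1.32 FPKM (limma adjusted p = 0.075). MTX2, beyond the HOXD cluster, was at 33.9 and 38.2 against 31.4 and 37.7 FPKM, with values that overlapped.

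Genes listed as regulators of HOX genes or of posterior identity did not move as a block. Of 16, 13 were tested, 5 fell, none rose and 8 did not pass, with a median difference of -0.39 against -0.01 for all tested genes. Of all tested genes 7.35% fell and 5.81% rose. The CDX genes encode homeodomain factors that activate central and posterior HOX genes. CDX2 was at 5.49 and 5.21 FPKM in DMSO and 0.233 and 0.145 FPKM in IWP2, and fell by 2.42 ± 0.16 (SE, limma adjusted p = 0.00179). CDX1 was at 3.14 and 2.79 FPKM against 0.132 and 0.153 FPKM and fell by 1.79 ± 0.17 (SE, limma adjusted p = 0.00487). Both CDX2 and CDX1 met the minimum for testing only through the DMSO samples. CDX4 was at 2.32 and 2.39 FPKM against 1.39 and 1.87 FPKM, and its difference of -0.36 ± 0.17 (SE) did not pass (limma adjusted p = 0.243), although the groups did not overlap. CYP26A1, which degrades retinoic acid, fell from 141 and 150 FPKM to 8.86 and 9.98 FPKM, a difference of -3.81 ± 0.10 (SE), and RARA, a retinoic acid receptor, fell from 11.6 and 14.3 to 7.52 and 7.61 FPKM. LIN28A, NR6A1, GDF11 and RARG had differences within 0.15 of 0 on the log2(FPKM + 1) scale and did not pass. ALDH1A2, higher in IWP2 by 0.72, MNX1, at -1.01, and LIN28B, at -0.39, did not pass either, although in each the groups did not overlap. The same lack of overlap held for NR6A1 and RARG. MNX1 was at 2.86 and 0.282 FPKM in DMSO and 0.0942 and 0.120 FPKM in IWP2, so its difference rests mostly on 1 DMSO sample.

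The TALE homeodomain proteins bind DNA together with HOX proteins. All 9 of their genes were tested, 2 fell, 1 rose and 6 did not pass, beside 7.35% of all tested genes that fell and 5.81% that rose. MEIS3 fell from 31.1 and 32.0 FPKM to 12.8 and 12.7 FPKM (difference -1.25 ± 0.09, SE), and PKNOX2 fell from 3.43 and 5.14 to 1.68 and 1.39 FPKM. MEIS1, which works with HOXA9 in blood cells, was at 2.04 and 2.07 against 0.881 and 1.07 FPKM and MEIS2 at 1.13 and 1.08 against 0.268 and 0.320 FPKM, and neither passed (limma adjusted p of 0.0688 and 0.0645). These were the largest falls among the 6 that did not pass. The others had smaller differences, from -0.32 to 0.08 on the log2(FPKM + 1) scale.

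**Figure D5:**
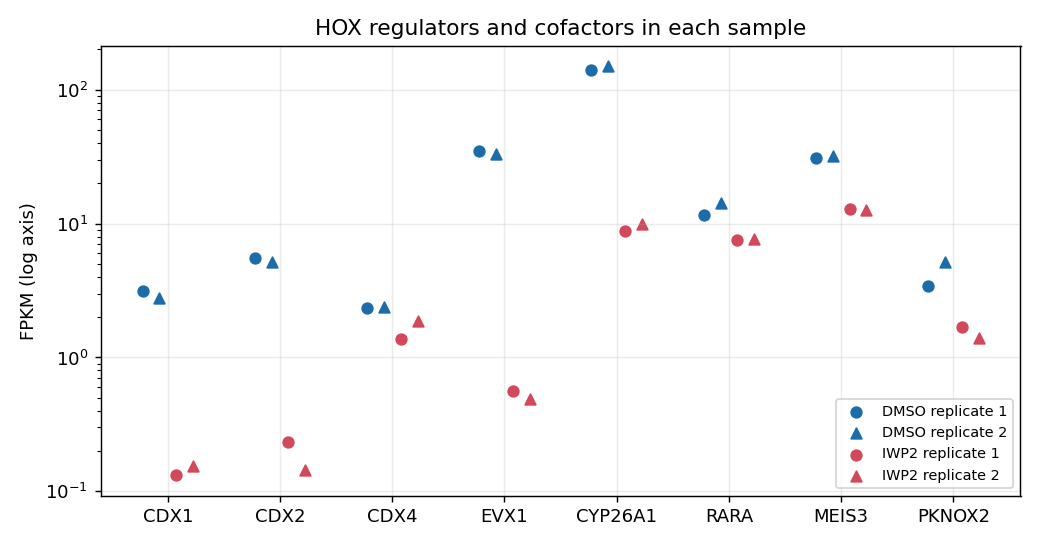
FPKM on a log axis in each sample for 8 regulators and partners of HOX genes; blue marks are DMSO and red marks IWP2. CDX1, CDX2, EVX1 and CYP26A1 lie more than 10-fold lower in IWP2, and CDX4 lies below 2.5 FPKM in all samples.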

How the data were processed

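RNA of H1-derived cells was extracted with Trizol and made into Illumina TruSeq libraries. The authors deposited FPKM per gene and sample, with 1 column per sample. The DMSO columns carry the sign for no IWP2 and were placed in that group by it, with the number in their own names. The submitters' processing notes name BWA, Bowtie, RSEM and hg19, but 55587 of 55681 row IDs shared with GENCODE 29 carry its GRCh38 coordinates once 1 is added to the start, so positions are given in GRCh38. FPKM was used as log2(FPKM + 1) in limma 3.58.1 (R 4.3.3) with the intensity trend, genes with a mean of at least 0.5 FPKM, no covariate, and Benjamini-Hochberg adjustment over 15980 genes, with a threshold of 0.05. The fit and its calls were tested on simulated data, with changes set only in genes above a mean level that most of the tested HOX genes did not reach. A pseudocount of 1 FPKM understates changes of low genes. Depth was estimated from single-transcript genes below 0.5 FPKM, where 90.3 to 91.0% of values were whole multiples (within 0.05) of 1 fragment's value. Of 16 genes that every cell uses, 0 were at 0 in any sample. Named genes were those that passed, the 3 highest per cluster, the 2 nearest the minimum on each side, and regulators that passed or were CDX1, CDX2, CDX4, EVX1 or CYP26A1. Some context genes that did not pass, such as MEIS1, MEIS2, SKAP2 and LIN28A, are named outside this rule. Members and lists were chosen with earlier results of these data known. Alternatives covered pseudocount, filter, scaling, trend, replicate block and each sample left out. The values of 1 HOX gene that fell and of 1 cofactor gene, and some sequences, are not reported here, although the counts and sums include them.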

Additional observations from a re-analysis of the deposited data

How the results depend on the processing

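The 9 HOX genes kept a negative difference under every alternative that tested them, but its size depends on the pseudocount: at 0.1 FPKM it was -7.32 for HOXB6, -5.20 for HOXB2, -5.14 for HOXB3, -4.63 for HOXB8, -4.29 for HOXB5, -4.07 for HOXB7, -3.68 for HOXA9 and -3.30 for HOXB9. The count of HOX genes that passed stayed between 7 and 11 under another pseudocount, filter, scaling or prior, and 7 with no filter, where HOXA9, HOXB7 and HOXB8 were lost and HOXA11 was gained. Leaving out 1 sample gave 1 to 8 HOX genes, the lowest counts without IWP2 replicate 2 (1) and without IWP2 replicate 1 (2), and 94 to 696 genes in all against 2104, fits in which 1 residual degree of freedom remains and the lone sample is assumed to vary like the other group. With no filter 381 genes passed, and a mean of 0.1 FPKM admitted 17 HOX genes in place of 9. Quantile normalization gave 1058 genes lower and 1066 higher, and no scaling moved the median of all genes past 0.03. The summed HOXA difference was -5.45 FPKM under median-ratio scaling against -5.50. Ranges without 1 sample were -5.53 to -5.46 FPKM for HOXA, -101.8 to -75.2 for HOXB, 0.0922 to 0.208 for HOXC and -0.897 to -0.718 for HOXD. The labels do not say whether same-numbered samples were paired, and a shared batch was not tested. Deviations of same-numbered samples correlated at 0.142, and with the replicate block 1901 genes and the same 9 HOX genes passed. Levels under about 0.03 FPKM are near 1 fragment.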
